A study of Mus musculus with 50 samples.

Results

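Nuclear factor I A (NFIA) is best known for the binding sites it occupies in astrocytes, and the 179 regions described here are those it occupied in other cells of the visual cortex and not in astrocytes. They were chosen from NFIA peak calls alone. Overlapping NFIA peaks of the 3 libraries of oligodendrocytes (OL), of inhibitory neurons (InN) or of excitatory neurons (ExN) were merged and kept as a site when at least 2 of the 3 libraries held a peak, and the merged sites of the 3 cell types numbered 756. Of these, 577 overlapped a peak in at least 1 of 3 astrocyte NFIA libraries and are called shared sites, and 179 overlapped none. Over all 4 cell types the merged NFIA sites numbered 23714, of which astrocytes contributed 23495. Because NFIA calls chose these regions, NFIA values are given as a description with no test, and "absent" means only that no peak was called. Fewer nuclei with NFIA bound and weaker binding per nucleus cannot be told apart in such lists.

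The study asked how the glucocorticoid receptor (GR) and its partner NFIA bind chromatin in mouse primary visual cortex (V1), by CUT&RUN, in which an antibody directs a nuclease to cut and release the DNA around a bound protein. Libraries in vivo came from postnatal day 14, with nuclei of 3 to 5 mice pooled per library. NFIA was profiled in normally reared (NR) mice, in astrocytes, OL, InN and ExN with 3 libraries each. GR peaks of 27 libraries were used, leaving out GR libraries of nuclei without GFP. OL, InN and ExN nuclei were sorted by a Sun1-GFP nuclear tag switched on by Olig2-Cre, Slc32a1-Cre or Slc17a7-Cre, so that each gate holds every cell with a history of that gene's expression. Astrocyte nuclei were sorted by EGFP-KASH from a virus with the GfaABC1D promoter and an inactive Cre (ΔCre) in NR or dark-reared (DR) mice labelled wild type, although the methods mention astrocyte NFIA libraries only with mice carrying floxed GR alleles. GR-con and GR-KO astrocytes, 2 libraries each, came from NR mice with floxed GR alleles that received ΔCre or active Cre. GR was also profiled in 3T3 cells, an established mouse fibroblast line, given vehicle or 200 nM dexamethasone (DEX, a synthetic glucocorticoid) for 2 h, with 50000 or 250000 nuclei and 2 libraries for each combination. The files hold peaks, each with a fold enrichment over the IgG control, and neither counts nor expression, so the read depth is unknown and the cell type labels could be checked only through peaks at marker genes.

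NFIA belongs to the nuclear factor I family, proteins that bind DNA as dimers at a palindrome of TTGGC and GCCAA and that also bind one arm of it. In the brain NFIA starts the production of glia from neural progenitors and stays high in mature astrocytes, while oligodendrocytes and some neurons keep lower levels. GR is held in the cytoplasm until a glucocorticoid binds it and then enters the nucleus, where it binds its own palindromic element or chromatin held open by other factors.

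Of the 179 sites, 113 were sites of InN alone, 42 of ExN alone and 12 of OL alone, while 12 were sites of both neuron classes and no site was common to OL and a neuron class. In all, 12 sites belonged to OL, 125 to InN and 54 to ExN. The sequences below, from 50 bases before to 50 bases after the strongest NFIA summit, were read from GRCm38.p6 (mm10 coordinates, forward strand) and stand in lower case, with capitals for the NFI palindrome (TTGGC and GCCAA with 5 bases between), the NFI half-site TTGGCA and the E-box CAGCTG, on either strand. The first set shows the best-ranked sites of OL and of InN that were called in all 3 libraries of their cell type.
Sema3d intron, OL, chr5:12549440-12549540: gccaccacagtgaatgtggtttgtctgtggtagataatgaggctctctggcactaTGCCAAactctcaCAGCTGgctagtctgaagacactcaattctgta
Intergenic, nearest coding gene Dcn, OL, chr10:97266170-97266270: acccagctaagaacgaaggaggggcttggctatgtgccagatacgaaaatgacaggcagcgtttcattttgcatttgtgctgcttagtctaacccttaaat
Cdk8 intron, InN, chr5:146260991-146261091: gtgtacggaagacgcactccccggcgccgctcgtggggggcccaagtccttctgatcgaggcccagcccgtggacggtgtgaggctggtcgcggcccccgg
Jarid2 intron, InN, chr13:44869569-44869669: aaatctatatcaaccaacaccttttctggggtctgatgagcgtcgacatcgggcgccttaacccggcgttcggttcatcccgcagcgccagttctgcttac
The Sema3d window held a half-site and, further along, an E-box, and the other 3 windows held none of these. No ExN site was called in 3 libraries, because the third ExN list held a single peak, so the best-ranked sites of ExN alone and those of both neuron classes are shown in their place, a choice made after their values were seen.
Sobp intron, ExN, chr10:43075644-43075744: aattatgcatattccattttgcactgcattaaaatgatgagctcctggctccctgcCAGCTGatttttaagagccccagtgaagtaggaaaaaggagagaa
Intergenic, nearest coding gene Ptcd2, ExN, chr13:99303955-99304055: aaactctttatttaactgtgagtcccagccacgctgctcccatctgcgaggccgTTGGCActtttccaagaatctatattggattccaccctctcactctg
Gm26917 promoter, InN and ExN, chr17:39845463-39845563: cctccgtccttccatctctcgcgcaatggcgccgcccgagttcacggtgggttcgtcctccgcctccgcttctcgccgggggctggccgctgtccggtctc
Intergenic, nearest coding gene Gm8797, InN and ExN, chr3:5860623-5860723: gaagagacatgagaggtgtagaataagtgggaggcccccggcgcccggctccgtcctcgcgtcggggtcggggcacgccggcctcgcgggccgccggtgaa
Both ExN windows held a motif in capitals, and both windows shared by the neuron classes lacked one and were rich in G and C (71.3% and 72.3%). The third set holds the 5 windows with a full NFI palindrome, the sequence that NFI dimers bind most tightly.
Intergenic, nearest coding gene Khdrbs3, ExN, chr15:69923368-69923468: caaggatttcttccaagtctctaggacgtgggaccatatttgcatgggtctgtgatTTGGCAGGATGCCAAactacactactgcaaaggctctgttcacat
Intergenic, nearest coding gene Il1f6, ExN, chr2:24213512-24213612: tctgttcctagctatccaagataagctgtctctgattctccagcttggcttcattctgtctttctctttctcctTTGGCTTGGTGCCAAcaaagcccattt
Intergenic, nearest coding gene Dsel, InN, chr1:113298000-113298100: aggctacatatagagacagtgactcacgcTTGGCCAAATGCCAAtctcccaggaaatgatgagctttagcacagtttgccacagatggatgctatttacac
Zbtb16 intron, OL, chr9:48760763-48760863: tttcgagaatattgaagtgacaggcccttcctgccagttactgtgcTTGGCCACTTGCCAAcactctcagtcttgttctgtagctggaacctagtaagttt
Intergenic, nearest coding gene Tcerg1l, ExN, chr7:137924914-137925014: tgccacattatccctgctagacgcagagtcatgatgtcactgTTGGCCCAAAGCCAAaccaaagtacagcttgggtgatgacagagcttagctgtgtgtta
The last pair shows sites at 2 genes that define inhibitory neurons, and neither held a motif in capitals.
Gad2 promoter, InN, chr2:22622458-22622558: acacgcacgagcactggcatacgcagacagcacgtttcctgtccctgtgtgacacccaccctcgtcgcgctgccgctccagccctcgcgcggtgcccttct
Slc32a1 intron, InN, chr2:158613671-158613771: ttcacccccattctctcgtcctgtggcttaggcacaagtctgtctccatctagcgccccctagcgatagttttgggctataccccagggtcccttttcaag

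Oligodendrocyte sites were few, and 2 of the 12 were called in all 3 OL libraries. The Sema3d site lay in an intron of a gene for a secreted guidance cue, and its NFIA fold enrichment was 11.98, 12.3 and 12.6 in the 3 OL libraries. The second site called in all 3 libraries, 213389 bp from the decorin gene Dcn, had 9.21, 4.67 and 7.09. The other 10 OL sites were called in 2 libraries. Among them, an intron of Kdm1a, which encodes a histone demethylase, had 10.1 and 13.7 in replicates 1 and 2, and the Zbtb16 intron, a gene for a zinc finger repressor, had 7.43 and 8.49 in replicates 2 and 3. The Zbtb16 site was the only OL site with a peak in libraries of another cell type, InN replicate 1 (7.74) and ExN replicate 1 (8.59), and an astrocyte NFIA peak began 21 bp from it. Gpr17, a receptor of differentiating oligodendrocyte precursors, had a site 457 bp from an annotated start (chr18:31950047-31950145) with the low folds of 3.41 and 2.92 in replicates 1 and 2 and no peak in replicate 3.

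Inhibitory neurons supplied most of the sites, and replicates 1 and 3 supplied most of the calls. Replicates 1 and 3 both held a peak at 117 of the 125 InN sites, whereas 13 were called in all 3 libraries, and replicate 2 listed 178 peaks against 1907 and 1288. Under the ranking by q, the first sites of InN alone called in all 3 libraries were in introns of Cdk8, a kinase of the Mediator complex, and of Jarid2, a partner of Polycomb repressive complex 2. NFIA fold at Cdk8 was 3.84, 4.2 and 4.91 in replicates 1 to 3, and at Jarid2 it was 8.63, 9.84 and 11.5. An exon of the non-coding gene 8030423J24Rik had 7.62, 13.1 and 9.84, and an intron of the cyclin gene Ccnd3 had 8.10, 5.83 and 5.71. The 2 others were intergenic, 103972 bp from Ccdc3 (7.11, 9.29 and 6.18) and 1433132 bp from Dsel (10.6, 6.24 and 4.66), and both also had a peak in ExN replicate 1. Cdk8 thus ranked first at one of the lower folds, since rank was taken from the q value. Its site also had a GR peak in DR astrocyte replicate 1 (6.50) and in both 3T3 libraries of 250000 nuclei with DEX (3.55 and 3.8), and whether reads of repeated ribosomal DNA bear on the Cdk8 and Jarid2 calls was not tested. The highest NFIA fold of all 179 sites was at an intergenic InN site 382974 bp from Cps1, with 23.9 and 11.4 in replicates 1 and 3 and no peak in replicate 2.

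Excitatory neuron sites rested on replicates 1 and 2, which listed 4173 and 246 peaks, and every one of the 54 had a peak in both. The best-ranked site of ExN alone lay in an intron of Sobp, with NFIA folds of 16.6 and 12.5. Next came an intergenic site 40700 bp from Ptcd2 (10.5 and 9.24) and one 231877 bp from the cadherin gene Cdh11 (12.5 and 11.99). The highest fold of all the ExN sites shared with InN was at an intergenic site 425310 bp from Slitrk5, a synaptic adhesion gene, with 19.3 and 18.4 in ExN and 12.7 and 6.39 in InN replicates 1 and 2. Among sites of ExN alone, introns of Grid1 and Gria1, which encode glutamate receptor family proteins, had 10.7 and 13.6, and 6.72 and 5.71. An intron of Kif5c, a kinesin motor of neurons, had 4.51 and 5.01, and an intron of Synpo, a protein of dendritic spines, had 10.9 and 4.03, these 4 being named for what they encode after the sites were seen. The map of peaks by library shows 3 blocks that hardly overlap: 10 of the 113 sites of InN alone and 4 of the 42 of ExN alone had a peak in a library of another cell type, a separation that the choice of sites partly fixes.

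**Figure D1:**
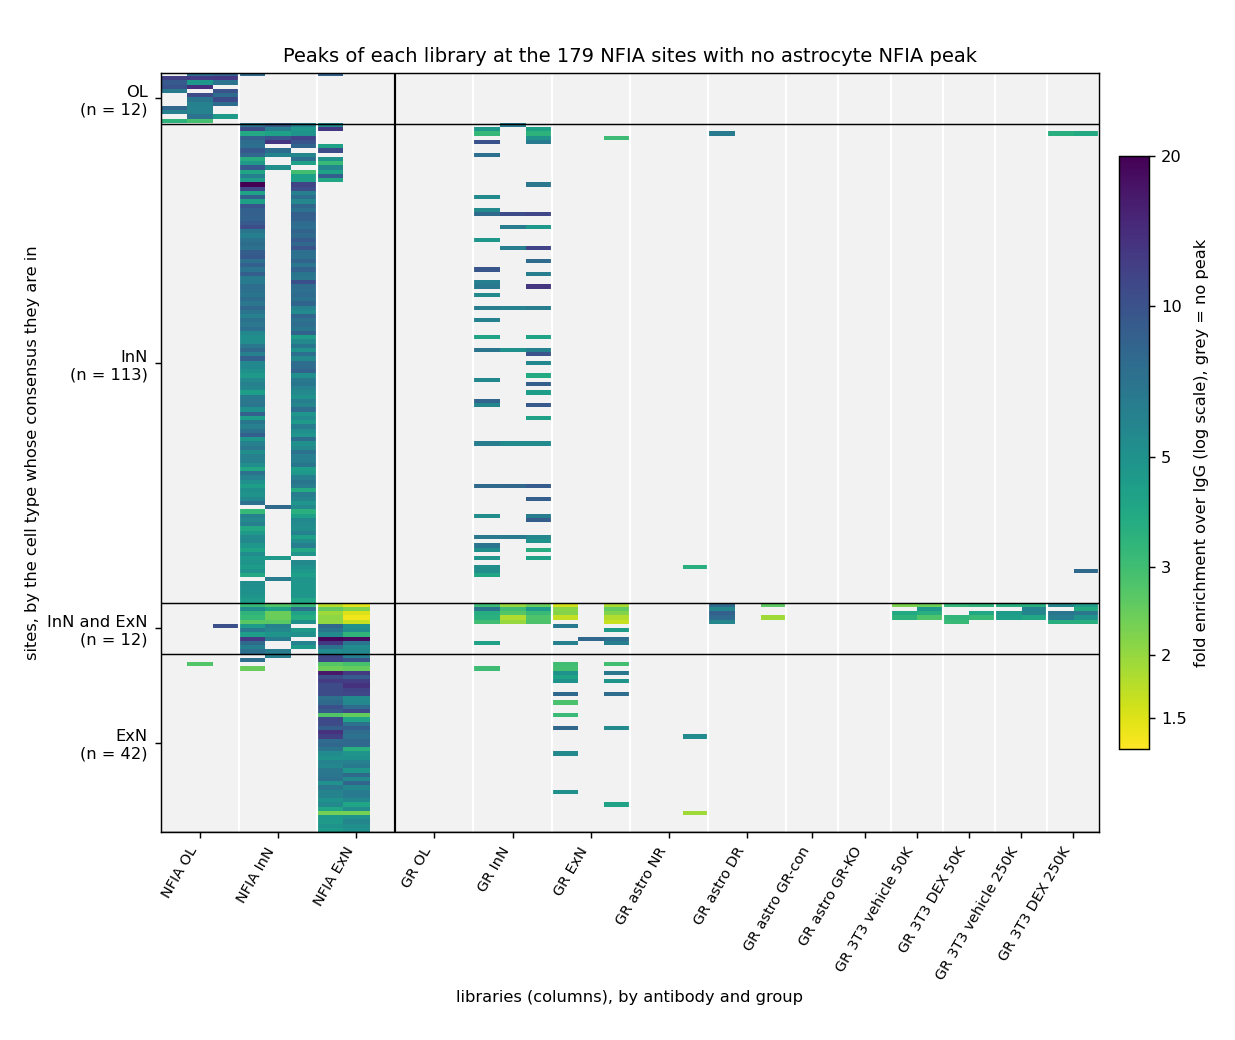
Each row is 1 of the 179 sites, grouped by the cell type whose NFIA consensus holds it, each column is 1 library, and colour gives fold enrichment over IgG on a log scale, with grey where no peak was called. NFIA peaks form separate blocks for OL, InN and ExN. GR peaks of InN fall in the InN block and those of ExN in the ExN block, and the top 5 rows of the InN and ExN block also have peaks in 3T3 libraries.

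In fold, these sites were higher than the shared ones in 7 of the 8 libraries that held any of them. Median fold at peaks in the absent sites was 8.15, 6.45 and 8.49 in OL replicates 1 to 3, against 4.79, 5.14 and 5.37 at peaks in shared sites. In InN it was 6.09, 5.16 and 5.93 against 5.39, 6.41 and 5.37, and in ExN replicates 1 and 2 it was 5.76 and 5.60 against 4.29 and 3.43. InN replicate 2 was the one library in which the order was turned. By rank in q, where 0% is the strongest peak of a library, the absent sites' peaks had the weaker median rank in 4 of the 8 libraries, OL replicates 1 and 2 (45.3% against 44.0% and 55.4% against 29.8%) and InN replicates 1 and 3 (33.6% against 30.5% and 43.6% against 37.7%). At the edge of the rule, 40 of the 756 sites had a peak in just 1 astrocyte library, at folds from 3.00 to 11.5 (median 6.11), and 43 had one in 2 libraries. On the other side of the edge, 13 of the 179 sites had an astrocyte NFIA peak within 1000 bp, the nearest at 11 bp, and the median gap was 26277 bp. By calls, 164 of the 179 sites were at the minimum of 2 libraries and 15 were called in all 3 libraries of a cell type.

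Most of the sites lay away from promoters. With a promoter defined as the 500 bp on either side of a GENCODE M21 transcription start, 35 sites (19.6%, Wilson 95% interval 14.4 to 26) were in promoters, 70 in introns, 68 between genes and 6 in exons. Among shared sites 304 of 577 (52.7%, 48.6 to 56.7) were in promoters. Within each of the 8 libraries with at least 5 peaks in these sites, the promoter share was lower in the absent sites: in InN replicate 1 it was 22.6% against 57.3%, in ExN replicate 1 it was 18% against 72.5%, and in OL replicate 2 it was 9.09% against 29.1%. Over the 5 libraries with at least 20 such peaks, the minimum set for the test, the mean was 19.9% ± 3.03 against 59.0% ± 16.0 (SD, n = 5 libraries), a difference of -39.0 percentage points in the same direction in 5 of 5 libraries. The exact sign-flip permutation test gave p = 0.0625, the smallest that 5 libraries allow (adjusted p = 0.104 over 5 properties). With the 8 libraries, a set added after the data were seen, the difference was -30.8 points, lower in 8 of 8 (exact permutation p = 0.00781, adjusted p = 0.0195). Libraries of 1 cell type hold largely the same sites and the test takes them as independent; with a mean for each cell type in place of its libraries the difference was -41.7 points over InN and ExN (exact permutation p = 0.5, the smallest that 2 values allow).

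Base composition differed too, with lower GC content in the absent sites of every library but InN replicate 2. The properties in this paragraph were not compared within promoter sites or within other sites. They cannot be told apart from the difference in promoter share. GC content of the 100 bp on either side of the summit was 53.7% ± 2.84 in the absent sites and 59.97% ± 1.64 in shared sites (n = 5 libraries), lower in 4 of 5 (exact permutation p = 0.125, adjusted p = 0.156) and, over 8 libraries, 51.1% against 57.9%, lower in 7 of 8 (p = 0.0156, adjusted p = 0.0195). Repeat-masked bases made up 8.55% ± 1.04 against 5.79% ± 0.491, higher in 5 of 5 libraries (exact permutation p = 0.0625, adjusted p = 0.104). The ratio of observed to expected CpG was 0.471 ± 0.0700 against 0.585 ± 0.112, a difference that passed no test (exact permutation p = 0.25 with 5 libraries and p = 0.0547 with 8). Among the absent sites, median GC content was 45.8% in OL alone, 47.8% in ExN alone and 52.7% in InN alone, and among shared sites it was 55.2% in OL, 60.7% in ExN and 61.2% in InN, so the order of the cell types was the same. Mean log10 distance to the nearest start, in bp, was 3.57 ± 0.10 against 2.64 ± 0.36, farther in 5 of 5 libraries (exact permutation p = 0.0625, adjusted p = 0.104). The tests over 8 libraries carry the limits given above for promoters.

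**Figure D2:**
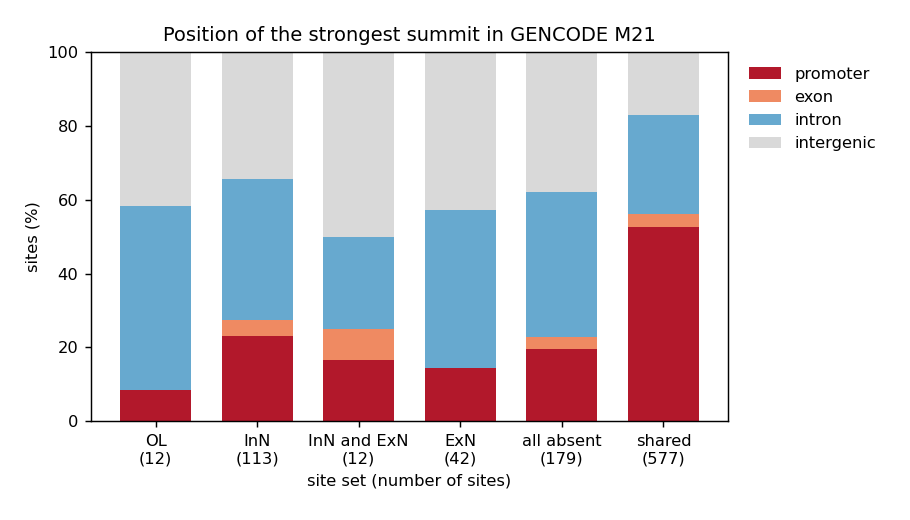
Bars stack the percent of sites whose strongest NFIA summit lay in a promoter (within 500 bp of a start), an exon, an intron or between genes, for each group of absent sites and for shared sites, with the number of sites under each bar. Promoters hold 19.6% of absent sites and 52.7% of shared sites.

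Promoter sites of InN alone, 26 in all and 22 at protein-coding genes, included genes of synapses and neuronal excitability. Nrxn3 encodes a presynaptic adhesion protein, and its promoter site had NFIA folds of up to 5.12. Gad2 encodes an enzyme that makes GABA, Kcnt1 a sodium-activated potassium channel, Adcy8 a calcium-stimulated adenylyl cyclase, Doc2b a calcium sensor of exocytosis, Dlgap2 and Lrfn2 postsynaptic proteins, Cbln2 a synaptic organizer, and Serpini1 the protease inhibitor neuroserpin. Their highest folds were 7.81 at Gad2, 7.57 at Kcnt1, 8.39 at Adcy8, 5.30 at Doc2b, 6.06 at Dlgap2, 5.20 at Lrfn2, 6.74 at Cbln2 and 5.63 at Serpini1. Others lay at genes used by most cells, such as Surf4, a cargo receptor of the secretory pathway (4.42), Nek6, a mitotic kinase (6.36), and Ppa1, a pyrophosphatase (6.17). Distances were taken to any annotated transcript start, and these genes were picked from the list of promoter sites by what they encode, after it was seen. Promoter sites of ExN alone were 6 and included Terf1, Nudcd2, Hnrnpab, Zfp369 and Ssbp4. Terf1, which encodes a telomere-binding protein, had at most 2.31, while Ssbp4 had 11.9 and 7.11. Gpr17 was the promoter site of OL, and the 2 promoter sites of both neuron classes were at the non-coding genes Gm26917 and CT010467.1.

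A few of the genes that define the cell types lay near these sites, and most had none. The gene lists, here and below, were chosen with earlier results of these data known. A share above that over all protein-coding genes may therefore owe to the choice of genes, which was not tested. A member site lay within 50 kb of the start of 0.917% of the 21911 protein-coding genes, and of 10 of the 252 listed genes. For InN, ExN and OL sites alone, the shares of protein-coding genes were 0.607%, 0.26% and 0.0685%. Inhibitory neuron identity genes had InN sites at 2 of 28 (7.14%): the Gad2 promoter, with 6.13 and 7.81 in InN replicates 1 and 3, and an intron of Slc32a1 (chr2:158613610-158613737), which encodes the vesicular GABA transporter, with 3.92 and 4.33. Slc32a1 is also the gene whose Cre allele labelled the InN, and whether that allele bears on the site was not tested. Neither site had a peak in InN replicate 2 or in any OL or ExN library. An InN site in an intron of Pnoc, a neuropeptide gene of interneurons that was on no list, had 6.60 and 4.89. Gad1, the Dlx and Lhx6 transcription factor genes and Pvalb, Sst and Vip had none.

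The oligodendrocyte lineage list had 2 of 28 genes (7.14%), Gpr17 and its neighbour Lims2, through 1 and the same site. Olig2, Sox10 and Mbp, which define the lineage, had none. The excitatory neuron list had 2 of 26 (7.69%). One was Cux2, a transcription factor of upper layers, with an ExN site 30995 bp from its start (10.3 and 7.70 in replicates 1 and 2), and the other was Cdh13, a cadherin, whose intronic site belonged to InN and not to ExN (6.06 and 6.19 in InN replicates 1 and 3). A pair of further listed genes lay outside the 50 kb window: an ExN site in an intron of Mef2c was 104300 bp from its start (6.85 and 7.78) and one lay 63100 bp from Neurod6 (7.22 and 5.43), both noted after their values were seen. The pan-neuronal list had 3 of 16 (18.8%), Celf4 and Rbfox1, which encode RNA-binding proteins, and Nrxn3, all 3 as promoter sites of InN alone. Celf4 had 3.63 and 7.42 in InN replicates 1 and 3 and 4.94 in ExN replicate 1. Of the potassium and sodium channel list, 1 of 22 had a site, Scn1a, a sodium channel gene of fast-spiking interneurons, 31196 bp away at the start of the non-coding gene Gm13630 (7.01 and 5.33 in InN replicates 1 and 3).

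No absent site lay within 50 kb of any gene on the lists of astrocyte identity (0 of 25), the nuclear factor I family (0 of 4), microglia (0 of 12), endothelial and mural cells (0 of 12), immediate early genes (0 of 19), canonical glucocorticoid targets (0 of 20), glutamate and GABA receptors (0 of 22) or housekeeping (0 of 20). Shared sites, which lay within 50 kb of 5.27% of protein-coding genes, were near 3 of the 25 astrocyte genes, 3 of the 19 immediate early genes, 3 of the 20 glucocorticoid targets, 3 of the 20 housekeeping genes, 1 of the 4 nuclear factor I genes and 1 of the 12 microglia genes. At 0.917% each of these lists would hold less than 1 gene, so a count of 0 is near the background. Irf2bpl and Thoc3 were the only protein-coding genes with 2 sites within 50 kb, and the other 199 had 1.

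Sequence was not used to choose the sites, and it showed the NFI half-site above its surroundings. The half-site TTGGCA, on either strand, was within 50 bp of the summit in 36 of the 179 sites (20.1%, Wilson interval 14.9 to 26.6) and in 121 of 577 shared sites (21%). Share by library was 14.5%, 15.4% and 12.6% in InN replicates 1 to 3, 29.5% and 27.3% in ExN replicates 1 and 2, and 42.9%, 18.2% and 37.5% in OL, where 7 to 11 peaks stand behind each value. In windows of the same length 1 kb to either side, the shares were 5.65%, 7.69% and 5.46% in InN, 6.56% and 8.18% in ExN, and 0%, 4.55% and 12.5% in OL. Each library thus lay above its own flanks, and in the same window on the starts of 32851 RefSeq transcripts (GRCm38.p6) the share was 4.14%. Over the 5 libraries fixed for the test the mean was 19.9% ± 7.89 against 6.71% ± 1.21, higher in 5 of 5 (exact permutation p = 0.0625, the smallest possible, adjusted p = 0.219 over 14 motifs). With 8 libraries the difference was 18.4 percentage points, higher in 8 of 8 (exact permutation p = 0.00781, adjusted p = 0.0365). That set was added after the data were seen. Libraries of the same cell type hold largely the same sites, and the test takes them as independent, so its p is too small by an unknown amount.

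The full palindrome was rare, in 5 of the 179 sites (2.79%), against none of the flanks in any library and 0.00913% of transcript starts. Half-sites were, in a comparison of cell types that was not tested, in 13 of 42 sites of ExN alone (31.0%, interval 19.1 to 46.0), in 4 of 12 of OL alone and in 16 of 113 of InN alone (14.2%, 8.91 to 21.8). Against shared sites, the half-site did not differ detectably (19.9% against 19.7% over 5 libraries, exact permutation p = 1), and the direction turned with the libraries used: it was higher in the absent sites of both ExN libraries, by 11.4 and 9.77 points, and lower in those of all 3 InN libraries.

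E-boxes, the targets of basic helix-loop-helix factors, were also above the flanks in each library. CAGCTG was in 28 of the 179 sites (15.6%). By library it was in 14.5%, 11.5% and 16.8% of InN summits, 3.28% and 9.09% of ExN summits and 28.6%, 36.4% and 25.0% of OL summits, and it exceeded the flanks in each of these 8 libraries (difference 16.3 points, exact permutation p = 0.00781, adjusted p = 0.0365, and 8.16 points, p = 0.0625, adjusted p = 0.219 with the 5 fixed libraries). CAGATG, which neuronal and oligodendrocyte helix-loop-helix factors such as Neurod and Olig proteins are known to bind, was in 21 of the 179 (11.7%) and exceeded the flanks in 8 of 8 libraries (difference 11.97 points, exact permutation p = 0.00781, adjusted p = 0.0365, and 4.24 points, p = 0.0625, adjusted p = 0.219 with the 5 fixed libraries). For both E-boxes the set of 8 libraries was added after the data were seen. Its libraries of the same cell type hold largely the same sites, though the test takes them as independent. The NFI palindrome and the letters of AP-1, RFX, CTCF and the GC box (GGGCGG) were each above the flanks in 4 of the 5 fixed libraries and below them in none (exact permutation p = 0.125, adjusted p = 0.219). Between absent and shared sites CAGATG differed by 3.00 points over 5 libraries, higher in 5 of 5 (exact permutation p = 0.0625, adjusted p = 0.292). CAGCTG differed by 1.39 points, higher in 3 of 5 (exact permutation p = 0.375, adjusted p = 0.583). In the same window on transcript starts the shares were 6.64% for CAGCTG and 5.81% for CAGATG. ExN replicate 1 (3.28%) was the only library below the CAGCTG share, and no library was below the CAGATG share.

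Against shared sites, letters known from promoters were less frequent, a difference not separated from the lower promoter share. In the same window on transcript starts the GC box was in 21.9% and the ETS motif in 5.24%. The GC box GGGCGG was in 8.47% ± 4.39 of the absent summits and 24.5% ± 6.54 of shared ones, lower in 4 of 5 libraries (exact permutation p = 0.125, adjusted p = 0.292), and the ETS motif CCGGAAG was in 1.43% ± 1.58 and 5.44% ± 1.19, lower in 5 of 5 (p = 0.0625, adjusted p = 0.292). AP-1 letters, TGANTCA, were in 5.50% ± 3.43 against 1.07% ± 0.934, higher in 5 of 5 libraries (exact permutation p = 0.0625, adjusted p = 0.292), and of the 14 motifs 0 passed the adjusted threshold against shared sites with 5 or with 8 libraries, while 0 and 6 were below an unadjusted exact permutation p of 0.05. The GR palindrome, AGAACA and TGTTCT with 3 bases between, was in 0 of the 179 windows, 0 of the 577 shared windows and 0 of the transcript starts, so it was not seen in either set. SOX (ACAATG), homeobox (TAATTA), MEF2 (CTA and TAG with 4 bases between), RFX (GTTGCC), CREB (TGACGTCA) and CTCF (CCA, AG and GGC with 2 bases between each) were in 1.12% to 4.47% of the sites and did not differ from the flanks by the adjusted test. The NFI palindrome can hold the half-site, and motifs with open positions can overlap others.

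**Figure D3:**
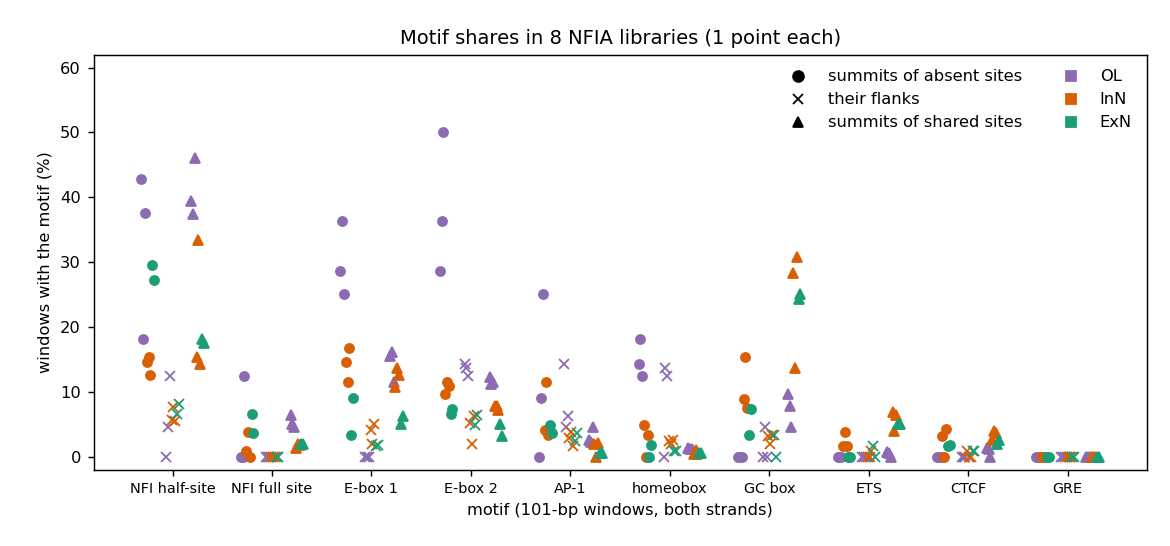
Each point is 1 of 8 NFIA libraries, coloured by cell type, and gives the percent of windows of 50 bp on either side with a motif at summits of absent sites (circles), in windows 1 kb to either side (crosses) and at summits of shared sites (triangles), where E-box 1 is CAGCTG and E-box 2 is CAGATG. Circles lie above crosses in 8 of 8 libraries for the NFI half-site and both E-boxes, and circles lie below triangles in 7 of 8 libraries for the GC box.

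GR was measured in libraries of its own, but the GR and the NFIA lists of each cell type carry the same IgG label in their peak names, and the part of that control in the overlap was not tested. Since the sites were chosen by calls in OL and neurons and by missing calls in astrocytes, GR shares are compared between these cell types as a description, with no test. Astrocyte GR was nearly missing from the sites. Of the 179 sites, 0, 0 and 3 had a GR peak in the NR astrocyte replicates, which listed 14012, 2262 and 21539 peaks over the genome. A count of 0 of 179 allows a share of up to 1.68%, counting error only. The 3 sites, all in replicate 3, were the Terf1 promoter (GR fold 1.92), the Ssbp4 promoter (5.33) and an intergenic InN site on chromosome 3 (3.54). In the same libraries 49.0%, 13.9% and 72.1% of shared sites had a GR peak. GR-con astrocytes had a peak at 0 of 179 sites in both libraries, against 25.8% and 33.8% of shared sites, and GR-KO astrocytes at 0 in both, against 4.51% and 0.867%.

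In neurons GR had peaks at some of the sites, at shares not consistently above those at shared sites. InN GR libraries held a peak at 36, 14 and 35 of the 179 (20.1%, 7.82% and 19.6%), while listing 2446, 916 and 1534 peaks, fewer than NR astrocyte replicates 1 and 3. ExN GR libraries held one at 17, 1 and 15 (9.5%, 0.559% and 8.38%), and OL GR libraries, with 110, 81 and 4 peaks, at 0, 0 and 0. At shared sites the InN libraries had a peak at 23.6%, 7.45% and 8.84% and the ExN libraries at 25.6%, 1.04% and 12.3%, so that InN replicate 1 was lower and replicates 2 and 3 were higher at the absent sites, and each ExN library was lower there. The mean share of the absent sites was 15.8% ± 6.94 in InN, 6.15% ± 4.87 in ExN and 0.559% ± 0.968 in NR astrocytes (SD, n = 3 each), and ExN and NR astrocytes overlapped, since ExN replicate 2 held 1 site.

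**Figure D4:**
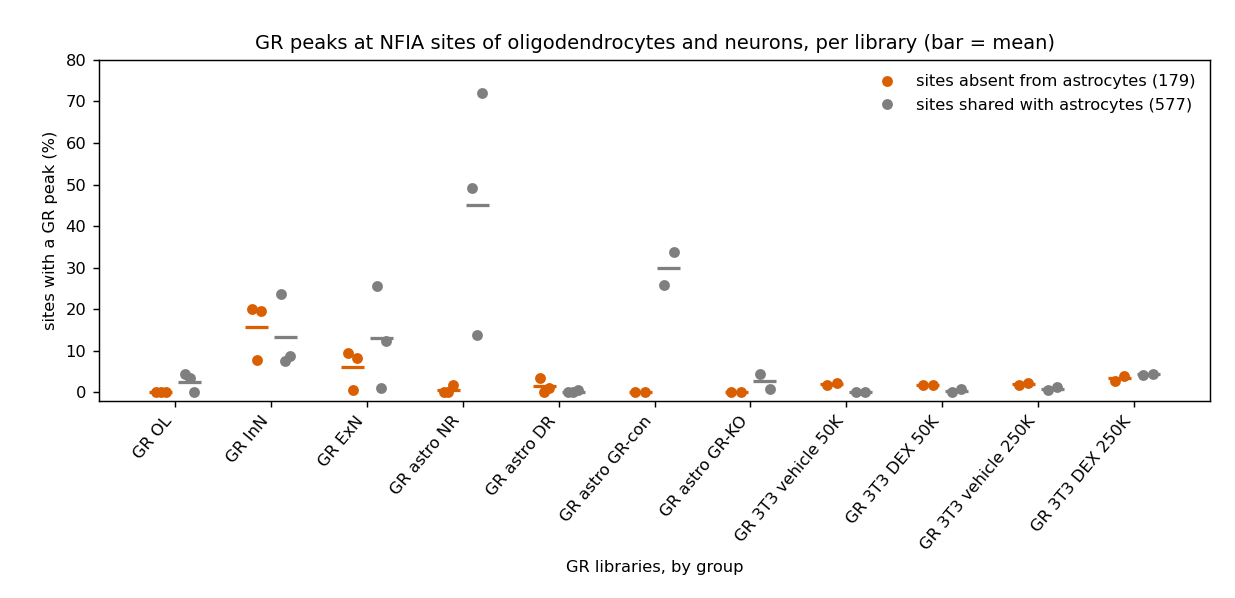
Each point is 1 GR library and gives the percent of the 179 absent sites (orange) and of the 577 shared sites (grey) with a GR peak, and bars mark group means. In NR astrocytes the orange points lie between 0% and 1.68% and the grey ones between 13.9% and 72.1%, while in InN the orange points, 7.82% to 20.1%, lie in the range of the grey ones.

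Sites of InN alone and of ExN alone were told apart by NFIA calls in those cell types, and GR calls are given for each as a description. At the 113 sites of InN alone, InN GR libraries had a peak at 25.7%, 7.96% and 26.5%, and ExN GR libraries at 0%, 0% and 0.885%. At the 42 sites of ExN alone, ExN GR libraries had one at 26.2%, 0% and 14.3%, and InN GR libraries at 2.38%, 0% and 0%. Share at InN sites minus share at ExN sites was 23.3, 7.96 and 26.5 points in the InN libraries and -26.2, 0 and -13.4 points in the ExN libraries. The values of the InN and ExN libraries did not overlap, but the nearest ExN value, 0, came from replicate 2, which listed 61 GR peaks. Shared sites also had GR more often in their own cell type. Of shared sites of InN, 41.0% had a GR peak in at least 1 InN library and 16.7% in at least 1 ExN library. For shared sites of ExN it was 63.8% in ExN and 29.4% in InN libraries. Both shared sets include sites of more than 1 cell type. The 12 sites of OL alone had no GR peak in any of the 27 libraries (Wilson interval 0% to 24.2%). Of 180 shared sites of OL, 135 (75%) had one, and 133 had one in NR astrocytes, whose NFIA calls helped to choose the sites. The OL GR libraries listed only 110, 81 and 4 peaks. The median distance between GR and NFIA summits was 22 bp at 51 InN sites and 27 bp at 21 ExN sites that had both. Median site length was 132 bp for InN and 156 bp for ExN, so the required overlap by itself keeps such distances short. These distances were not compared with those at other sites.

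**Figure D5:**
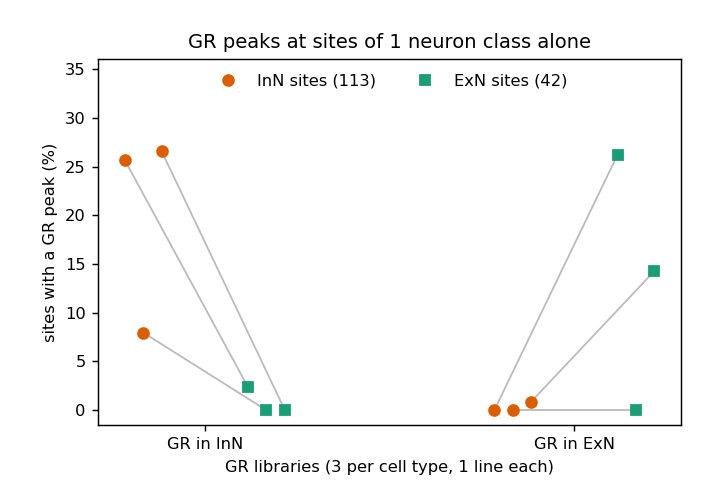
Each line is 1 GR library and joins the percent of the 113 sites of InN alone (circle) to the percent of the 42 sites of ExN alone (square) with a GR peak. All 3 InN libraries fall from left to right, 2 of 3 ExN libraries rise, and ExN replicate 2 has 0% at both.

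Among sites of InN alone, 45 of 113 (39.8%) had a GR peak in at least 1 InN library, 17 in at least 2 and 6 in all 3. With the sites of both neuron classes included, it was 51 of 125 (40.8%), 22 (17.6%) and 11 (8.8%). Among shared sites of InN, which also include sites of other cell types, 130 of 317 (41.0%) had one in at least 1 InN library. At least 2 InN libraries had one at 37 (11.7%) of them and all 3 at 11 (3.47%). The share with a peak in at least 1 library was thus close to that of shared sites. In the 6 sites of InN alone with GR in all 3 libraries, NFIA was called in InN replicates 1 and 3. The exon of Ifit3, an interferon-induced gene, had GR folds of 7.81, 10.6 and 11.2 in InN replicates 1 to 3 beside NFIA folds of 8.64 and 8.72. The promoter of Cfap54, a gene of ciliary axonemes, had GR folds of 6.69, 6.52 and 5.67 beside NFIA folds of 5.44 and 4.26. An intergenic site 144907 bp from Hapln1, which encodes a link protein of perineuronal nets, had 6.27, 5.98 and 6.38. The other 3 were intergenic, nearest to Sdk2 (7.78, 8.11 and 9.03), Sptlc3 (6.27, 5.44 and 5.42) and Wscd2 (7.01, 5.08 and 6.02). None of the 6 had a GR peak in any other cell type. Gad2, Slc32a1, Nrxn3, Rbfox1 and Celf4, in contrast, had no GR peak in any InN library.

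At the sites of ExN alone, 12 of 42 (28.6%) had a GR peak in at least 1 ExN library. With the sites of both neuron classes included, it was 21 of 54 (38.9%). That was a lower share than the 102 of 160 (63.8%) at shared sites of ExN, which also include sites of other cell types. At least 2 ExN libraries had one at 11 of the 54 (20.4%) and at 58 of these 160 shared sites (36.2%). Of the 42 sites of ExN alone, 5 had one in 2 libraries, replicates 1 and 3. The Sobp intron had GR folds of 4.99 and 6.68, the promoter of Nudcd2, which encodes a co-chaperone, 3.01 and 2.98, and the site near Cdh11 4.99 and 4.84. The remaining pair lay in an intron of Mms19 (7.98 and 5.43) and 637548 bp from Dtwd2 on chromosome 18 (7.87 and 7.53).

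Sites of both neuron classes were a mixture, and 5 of the 12 had GR peaks in neurons, in DR astrocytes and in 3T3 cells, with none in NR, GR-con or GR-KO astrocytes or in OL. These 5 had NFIA peaks in all 3 InN libraries and in ExN replicates 1 and 2, and each had a GR peak in at least 3 of 8 libraries of 3T3 cells. Of them, 3 lay side by side on chromosome 17 (chr17:39843191-39846120, chr17:39846205-39846718 and chr17:39847912-39848824), in a stretch that GENCODE annotates with the ribosomal RNA gene CT010467.1 and the non-coding genes Gm26917, Gm42418 and AY036118, and RefSeq with the pseudogene Rn18s-rs5, named for 18S ribosomal RNA. GR was called there in 15, 13 and 15 of 27 libraries. The 2 others, intergenic on chromosomes 3 and 11, had GR calls in 9 and 8 libraries, and the 100 bp on either side of their summits were 63.7% and 65.2% GC. Whether reads of repeated ribosomal DNA bear on these calls was not tested. NFIA folds at the 5 were low, from 2.40 to 7.37 in InN and from 1.37 to 2.51 in ExN.

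The same sites made up most GR calls outside neurons. DR astrocyte replicates held GR peaks at 6, 0 and 2 of the 179 sites, out of only 69, 28 and 293 peaks in all. The 6 of replicate 1 were those 5 sites and the Cdk8 intron, at GR folds of 5.68 to 8.64, and the 2 of replicate 3 were on chromosome 17. The mean share was 0.559% ± 0.968 in NR and 1.49% ± 1.71 in DR astrocytes (exact permutation p = 0.7, adjusted p = 1 over 6 comparisons). The smallest p possible was 0.1, and the sites were chosen for lacking NFIA peaks in NR astrocytes, so this test cannot decide. Without the 7 sites that had a GR peak in any 3T3 library the sign of the difference turned, with 0 sites left in each DR library. In 3T3 cells, 3 to 7 of the 179 sites had a GR peak (1.68% to 3.91%). With DEX the mean was 2.51% ± 1.07 and with vehicle 1.96% ± 0.323 (n = 4 each, exact permutation within the number of nuclei p = 0.5, adjusted p = 1). The smallest p possible here was 0.0556, so this test could not have separated them. At the chromosome 17 sites both were called, and at chr17:39843191-39846120 the fold was 3.61 and 3.60 with vehicle and 5.73 and 4.55 with DEX at 250000 nuclei. Without the 7 sites, the InN libraries still held a GR peak at 29, 9 and 29 of 172 sites (16.9%, 5.23% and 16.9%) and the ExN libraries at 13, 1 and 10.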

How the data were processed

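Peaks of 39 libraries out of 50 samples were used, and the remaining 11 (IgG controls and GFP-negative nuclei) were not analysed here. Per the labels and methods, the authors ran MACS2 on every library separately, with an IgG library as control, after adapter removal (cutadapt), mapping to mm10 (Bowtie2) and selection of short fragments (Picard, SAMtools, deepTools). The deposited lists give each peak's fold enrichment over IgG (a ratio) and its −log10 p-value and −log10 q-value. The highest q was 0.00999 in vivo and 0.0498 in 3T3 cells. In vivo libraries pooled 175000 nuclei of 3 to 5 mice. Libraries served as replicates, and depth is unknown, so the number of listed peaks stands in for it.

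Peaks were merged within a cell type, an overlap of 1 bp counted, and sites needed 2 of 3 libraries. The members, gene lists and tests were chosen with earlier results of these data known. Genes came from GENCODE M21 and sequence from GRCm38.p6, whose chromosome lengths hold every peak. Promoters lay within 500 bp of a start and 14 gene lists used 50 kb. Tests were exact sign-flip permutation over libraries with at least 20 peaks in the absent sites, or exact two-sided permutation of GR shares (6 comparisons, of which those between cell types are given without a test, since NFIA calls in those cell types chose the sites), each with Benjamini-Hochberg adjustment. Wilson intervals and the limit for a count of 0 (3 counts) cover counting error only.

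Named sites were, by rule, the 8 best-ranked sites of each cell type alone called in all 3 libraries and those of all 3 cell types, the best site of each listed gene, the 8 sites with GR in most libraries and the genes with most sites. All other sites named in the text were chosen after their values were seen. Scripts used Python 3.11.15, NumPy 2.4.6, pandas 2.3.3, SciPy 1.17.1, pysam 0.24.0 and matplotlib 3.10.9 and were tested on simulated data. Alternatives covered the number of libraries, a stricter q, the distance to astrocyte peaks, the overlap, window sizes, single cell types, left-out libraries and the replicate number as a block.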

Additional observations from a re-analysis of the deposited data

How the results depend on the processing

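The number of absent sites depended on the calls: it was 15 when all 3 libraries were required and 89 with a −log10 q of at least 5, and it ranged from 74 to 198 when 1 NFIA library was left out, with 74 without InN replicate 1 and 76 without InN replicate 3. The listed genes near a site, 10 in all, fell to 0 and 2 under the first 2 settings and ranged from 3 to 10 with a library left out, 3 without InN replicate 1 or 3. Half-site share in absent minus shared sites had no stable sign: it was -0.23 points against the astrocyte consensus, -1.19 in windows of 100 bp on either side of the summit, -6.82 in InN libraries alone, -2.94 with 8 libraries, and between -6.82 and 5.10 with a library left out (-1.34 and -0.06 without astrocyte replicate 2 or 3, -1.86 and -3.91 without InN replicate 1 or 3). AP-1 came to -0.11 points at the stricter q. With 8 libraries, a choice made after the data were seen, 3 motifs passed against flanks and 4 properties against shared sites, where 0 had passed with 5. With cell-type means no p could pass. Taken as a ratio to shared sites, 3T3 DEX minus vehicle was -3.50, and without the 7 sites with GR in 3T3 cells NR minus DR astrocytes was 0.58 points. The cause of these changes was not tested, other than that fewer sites or libraries entered. OL libraries alone and the 3-library requirement gave no motif or position value, since no library kept 20 peaks, and no absent site lay on chromosome X or Y. Same-numbered libraries did not deviate together (correlations from -0.15 to 0.22 over 18 pairs, 4 above 0.1), so numbers were not taken to pair samples. Under the replicate block the exact permutation p was 1 for NR against DR astrocytes and 0.5 for DEX against vehicle, and no call changed. Depth limits every absence: lists ran from 1 to 27143 peaks.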
